A study of Mus musculus with 53 samples.

Results

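The skeletal muscle genes examined here are 47 genes of the contractile apparatus, calcium handling, neuromuscular junction, energy supply and regulatory network of striated muscle, taken by symbol from a written list and read on every array of an atlas of mouse epithelial organs. All 47 were found among the 19920 genes named on the Gene ST arrays, and 46 among the 18162 genes named on the 3' expression arrays, where Mstn was not measured. Where a gene had several probe sets, the one with the highest mean level over all arrays of that type stood for it. The list was written by symbol and not computed from measured values, but it was chosen with earlier results of these data known. Its counts beside the share of all genes are therefore not those of a list chosen blind.

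The atlas measured total RNA of whole tissues on 53 arrays in 18 groups. The Gene ST arrays held trachea at embryonic day 18.5 (E18.5), whole cornea at E14.5, E15.5, E17.5 and postnatal days 3, 7, 14 and 28 (P3 to P28), and tissue labelled lung at E18.5, with 3 arrays in each group. The 3' arrays held E18.5 esophagus, stomach and proximal small intestine, with 3 arrays each. They also held dorsal skin and bladder, each at 3 fetal ages (E14.5, E16.5, E18.5), with 3 arrays per age except for the youngest bladder, which had 2. All tissues came from wildtype CB6 mice apart from the E18.5 bladders, which came from Get1 +/- mice, carrying 1 disrupted copy of the Get1 gene, so that in bladder the step to E18.5 also carries a change of genotype. The labels record no sorting and no treatment, and in these bulk samples fewer muscle cells and less RNA per muscle cell cannot be told apart. The labels do not say that replicates are separate animals, so p-values cover only the spread among arrays, and that spread may be technical.

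Skeletal muscle arises from precursor cells that switch on the regulators Myf5, Myod1, Myog and Myf6 in turn, fuse into fibres and then build sarcomeres of myosin thick filaments and actin thin filaments anchored at Z-discs and spanned by titin. Fibres make embryonic and perinatal myosins (Myh3 and Myh8) before the adult fast ones (Myh2, Myh1, Myh4), and Myh7 is the slow myosin. The mouse esophagus acquires a striated muscle coat in place of smooth muscle, and this change is under way late in gestation. The trachea lies against laryngeal and neck muscle, and dorsal skin lies on a thin sheet of muscle, the panniculus carnosus. The cornea has no muscle of its own, and the wall of the bladder and of the stomach is smooth muscle.

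Since many of the genes moved together, the reference promoters of 4 of them are shown as an illustration of their 5' regions: Myog, a regulator, Acta1 and Actc1, the skeletal and cardiac alpha-actins that both occur in fetal muscle, and Myh3, the embryonic myosin. The sequences are from RefSeq on build GRCm38.p6 and run from 250 bases before to 50 after the transcription start. Capitals mark the E-box CANNTG, its own reverse complement and the motif that myogenic regulators bind, and the CArG box, the motif of serum response factor, searched on both strands.
Myog (chr1:134289754-134290053, plus strand): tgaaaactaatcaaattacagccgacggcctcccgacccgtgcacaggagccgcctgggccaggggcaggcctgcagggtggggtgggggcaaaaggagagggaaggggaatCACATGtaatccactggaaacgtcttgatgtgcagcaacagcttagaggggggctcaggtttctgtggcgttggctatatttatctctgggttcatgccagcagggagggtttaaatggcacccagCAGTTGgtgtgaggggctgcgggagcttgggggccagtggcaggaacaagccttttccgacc
Acta1 (chr8:123894726-123895025, minus strand): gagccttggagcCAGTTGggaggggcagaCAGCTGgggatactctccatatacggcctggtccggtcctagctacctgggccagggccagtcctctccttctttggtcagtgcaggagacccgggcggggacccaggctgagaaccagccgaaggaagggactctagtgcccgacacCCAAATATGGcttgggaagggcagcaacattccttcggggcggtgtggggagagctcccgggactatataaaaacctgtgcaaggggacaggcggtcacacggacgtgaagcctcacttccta
Actc1 (chr2:114052826-114053125, minus strand): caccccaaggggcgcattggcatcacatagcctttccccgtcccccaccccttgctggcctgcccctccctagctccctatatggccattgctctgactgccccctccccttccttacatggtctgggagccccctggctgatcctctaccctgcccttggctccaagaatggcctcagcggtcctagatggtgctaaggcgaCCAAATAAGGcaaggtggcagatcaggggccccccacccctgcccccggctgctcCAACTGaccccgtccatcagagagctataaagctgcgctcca
Myh3 (chr11:67078050-67078349, plus strand): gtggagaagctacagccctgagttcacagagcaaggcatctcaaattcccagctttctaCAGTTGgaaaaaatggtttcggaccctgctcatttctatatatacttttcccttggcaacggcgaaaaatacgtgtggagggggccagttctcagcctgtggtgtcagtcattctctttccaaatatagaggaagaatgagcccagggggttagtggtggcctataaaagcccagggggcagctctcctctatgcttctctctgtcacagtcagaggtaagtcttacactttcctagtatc
RefSeq held a promoter for 36 of the 47 genes, and the first listed start was used for the 5 with several. The 32851 promoters used for comparison count every listed start, so a gene with several starts enters repeatedly. An E-box CANNTG was present in 29 of the 36 promoters (80.6%), against 72.3% of all 32851 promoters. Its narrower form CAGCTG was present in 14 of them (38.9%), against 16.3% of all promoters. A MEF2 site, searched on both strands, was present in 7 (19.4%) and a CArG box in 3 (8.33%), against 3.19% and 1.63% of all promoters. The sequences of Myog, Actc1 and Myh3 held no CAGCTG in this window. A match describes the letters and no more.

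Levels below are log2(intensity + 16) after quantile normalization within an array type, so 4.00 is the floor of the scale, a difference of 1.00 is 2-fold, and folds of genes near the floor are understated. A gene was called higher or lower in a comparison at an adjusted p under 0.05 (limma, Benjamini-Hochberg over all genes of the array type) with at least a 2-fold difference. The share of all genes called the same way is given beside the first count of each comparison.

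Several arrays departed from their labels or stood apart. The 3 arrays labelled lung had the surfactant gene Sftpc at 6.68 to 6.91, the range seen in cornea, whereas the thymocyte genes Rag1 and Cd8a were at 14.15 to 14.25 and 13.97 to 14.12, so they are called the arrays labelled lung. Among the 3' arrays, the 9 arrays of small intestine and of E16.5 and E18.5 skin stood apart from the other 17. Correlations between arrays over all genes were 0.614 to 0.799 between these sets, against 0.879 to 0.985 within the 17 and 0.762 to 0.990 within the 9. The labels name no batch, and in any comparison across the sets the tissue and the set cannot be told apart. Intestinal transcripts (Vil1 at 8.28 and 8.2, Cdx2 at 9.65 and 9.77) were present on replicates 1 and 2 of E14.5 skin but not on replicate 3 (4.56 and 4.96). Further, surfactant transcripts were present on skin arrays. On E18.5 skin replicates 1, 2 and 3 Sftpc was at 4.07, 13.73 and 13.21 and Sftpb at 4.32, 13.21 and 13.29. On E16.5 skin Sftpb was at 12.54 on replicate 2, against 4.43 and 4.55 on the other 2, while Sftpc was at 4.00, 7.15 and 6.82. The 3 skin arrays said below to hold surfactant transcripts are those with Sftpb at 12.54 or above. E16.5 replicate 3, with raised Sftpc alone, is not among them. Sftpb was also at 12.16 and 12.31 on small intestine replicates 1 and 3, and small intestine replicate 4 had the squamous keratin Krt13 at 12.30 and the stomach gene Gkn1 at 10.54, against at most 5.94 and 4.90 on the other 2. Organ markers matched the label in esophagus (Krt13 at 11.45 to 12.22), bladder (Upk3a at 9.76 to 9.98 at E18.5) and skin (Krt1 at 11.49 to 13.18). They also matched in stomach (Gkn1 at 9.17 to 12.32, although Cdx2 was at 9.66, 4.90 and 9.42) and cornea from E15.5 (Krt12 at 11.49 to 14.03). On the E14.5 cornea arrays Krt12 was at only 5.92 to 6.04. Trachea held cartilage Col2a1 (13.92 to 13.97), thyroid Tg (13.51 to 14.15) and the airway genes Scgb3a2 (13.74 to 14.15) and Dnah5 (9.11 to 9.53). Foxj1 (7.70 to 8.18) and Krt5 (9.15 to 10.90), also on the trachea list, overlapped the arrays labelled lung. The esophagus markers Krt13 (12.00, 12.31 and 9.86) and Krt4 (11.67, 11.92 and 9.76) were high on the trachea arrays too. Whether esophagus was included there was not tested.

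**Figure D1:**
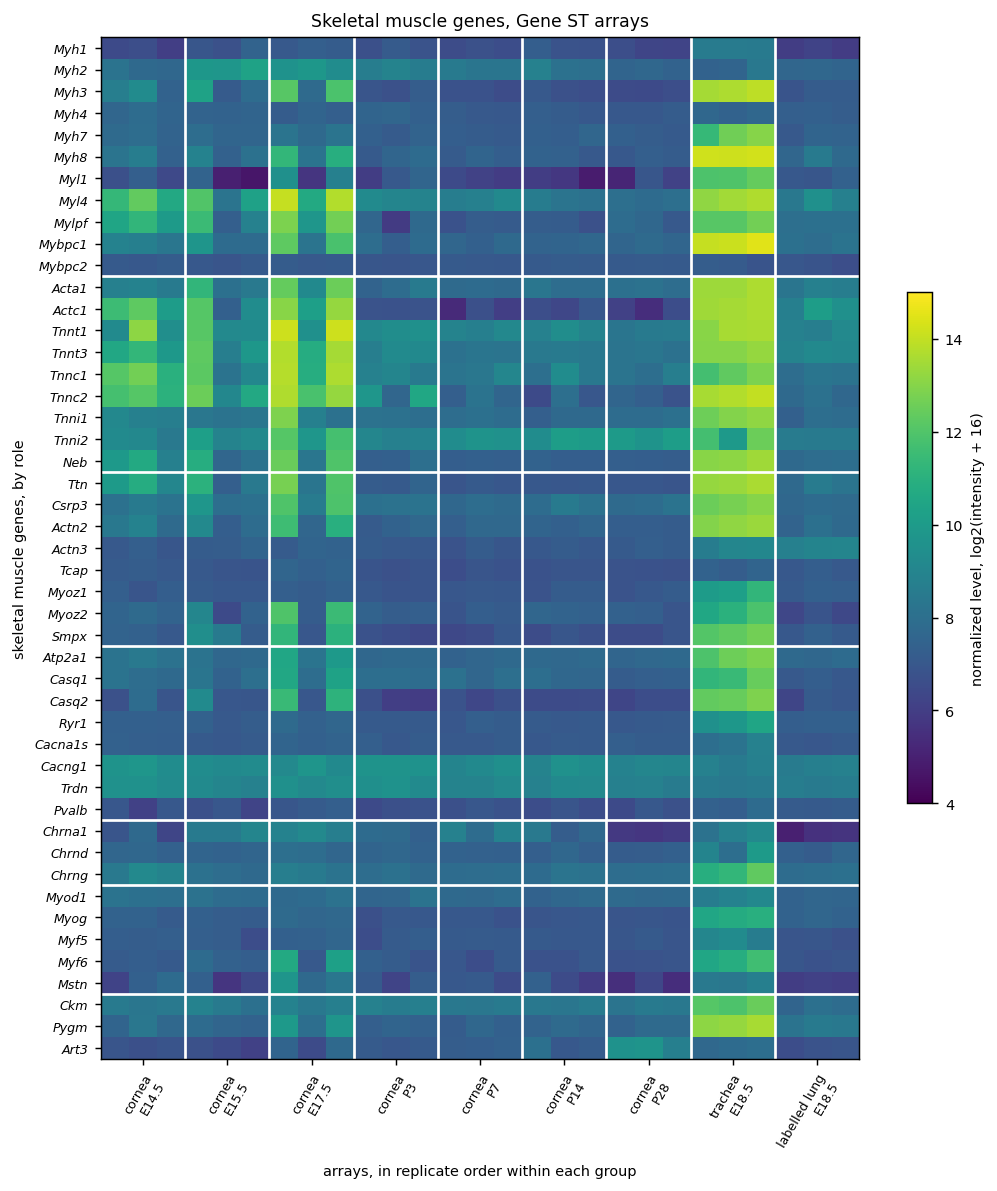
Levels of the 47 skeletal muscle genes on every Gene ST array, as log2(intensity + 16), grouped by role down the page and by tissue and age across it. Trachea is bright for most genes, and within E17.5 cornea replicates 1 and 3 are bright while replicate 2 is not.

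Trachea carried the strongest muscle signal on the Gene ST arrays. Of the 47 genes, 39 were higher and none lower in trachea than in the arrays labelled lung, where 16.1% of all genes were called in either direction, 10.8% as higher and 5.26% as lower. The median difference was 4.13, against -0.06 over all genes. The median level of the 47 genes was 11.38, 11.46 and 12.46 on the 3 trachea arrays, against 7.48, 7.67 and 7.61 on the arrays labelled lung. Against P3 cornea, a comparison added because the lung label was in doubt, trachea was also higher for 39 genes (23.3% of all genes called in either direction, 13.5% as higher and 9.82% as lower).

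Among the thick filament genes, 8 of 11 were higher in trachea than in the arrays labelled lung, led by the embryonic myosin. Myh3 was at 13.52, 13.66 and 13.89 in trachea, against 6.87, 7.19 and 7.20 (difference 6.61 ± 0.77 SE, adjusted p = 2.34e-07, limma). The perinatal myosin Myh8 was at 14.21, 14.15 and 14.25, against 7.64, 8.50 and 7.75 (6.24 ± 0.51, adjusted p = 7.99e-10). The slow myosin Myh7 was at 11.38, 12.62 and 13.00, against 7.06, 7.53 and 7.51, so that fetal and slow myosins were high on the same arrays and the groups did not overlap. Mybpc1, a myosin-binding protein mainly of slow fibres, was higher by 6.14 ± 0.63, whereas the fast form Mybpc2 was at 6.84 to 7.26 in trachea, against 6.64 to 7.00. The adult fast myosins Myh2 and Myh4 did not pass either, and Myh1 was higher by 2.5 ± 0.18 at a level of 8.52 to 8.59.

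All 9 thin filament genes were higher in trachea, with a median difference of 4.48. Acta1 was at 13.38, 13.37 and 13.65, against 8.26, 8.79 and 8.67 in the arrays labelled lung. The slow troponins Tnni1 and Tnnt1 were higher by 5.18 ± 0.65 and 4.48 ± 0.96, and the fast troponins Tnnc2 and Tnnt3 by 5.95 ± 0.68 and 4.03 ± 0.64, so both sets of troponins were present. The fast inhibitory subunit Tnni2 varied within trachea, at 11.73, 9.90 and 12.54. Of the Z-disc genes, 6 of 8 were higher, including titin (Ttn, 5.21 ± 0.79) and the muscle LIM protein Csrp3 (4.99 ± 0.56), while the telethonin gene Tcap, a late marker of the Z-disc, was at 7.25 to 7.55 against 7.05 to 7.28.

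Membrane, junction and regulatory genes were raised in trachea as well. The calcium pump Atp2a1 was higher by 4.69 ± 0.33 and the calcium store proteins Casq1 and Casq2 by 4.59 ± 0.43 and 5.76 ± 0.73. All 3 acetylcholine receptor genes were higher, and the fetal subunit Chrng reached 10.88, 11.27 and 12.32, against 7.89, 7.96 and 8.06. All 4 regulators and myostatin were higher. Myog was at 10.51, 10.77 and 10.94 in trachea, against 7.44, 7.63 and 7.48, and Myf6 was higher by 4.13 ± 0.52. Creatine kinase Ckm was at 12.12, 11.93 and 12.50, against 7.53, 8.05 and 7.89. The calcium channel subunit Cacng1 was at 8.50 to 8.82 in trachea and 8.57 to 8.83 in the arrays labelled lung, and the groups overlapped. Trdn, the gene of triadin, was at 8.40 to 8.53 in trachea, just below the 8.54 to 8.65 of the arrays labelled lung, and was not called. It had 19 probe sets on this array type, and only the brightest was read. Of 43 further skeletal muscle genes measured, 29 were higher and none lower in trachea. Cartilage genes (6 of 6), tendon genes (4 of 4, with a median difference of 3.46) and 6 of 12 smooth muscle genes were higher too, and their part in the result was not tested.

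In cornea the muscle signal differed between arrays of one age. The median level of the 47 genes was 8.19, 8.06 and 7.73 on the E14.5 arrays, 8.52, 7.45 and 7.85 on those of E15.5, and 9.92, 7.94 and 9.43 on those of E17.5, and it stayed within 7.20 to 7.56 on all 12 arrays from P3 to P28. At E17.5 the genes' median SD between the 3 arrays was 1.08, against 0.194 over all genes. On replicate 2 of E17.5, 25 of the 47 genes (53.2%) were at least 2-fold below both other arrays, against 1.99% of all genes. On replicate 1 of E15.5, 18 (38.3%) were at least 2-fold above both others, against 0.783% of all genes. All 18 were among the 25, of which they made up 72%. These sets of genes were chosen on the values and carry no test. In the sample titles the E17.5 replicates 1 and 3 carry the letter L and replicate 2 the letter R, whose meaning the labels do not state.

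**Figure D2:**
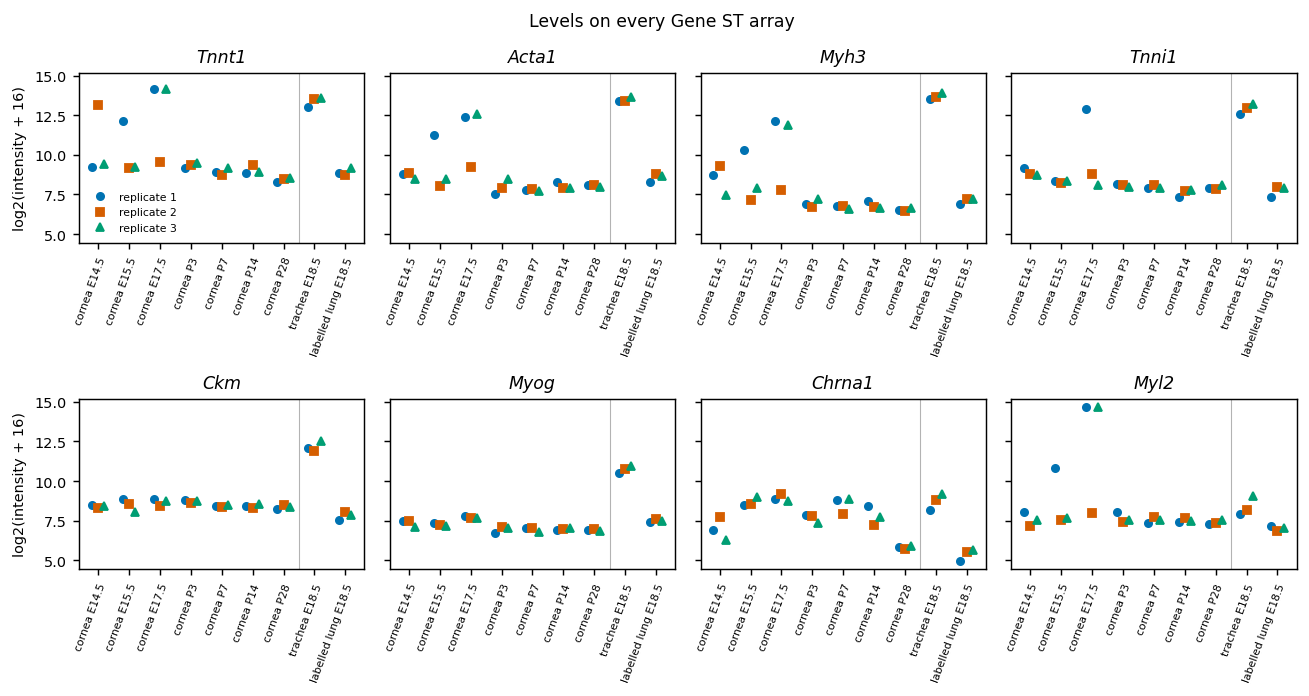
Levels of 8 genes on every Gene ST array, as log2(intensity + 16), with 1 point per array and symbols for the replicate. Tnnt1, Acta1, Myh3 and Myl2 are high on E17.5 replicates 1 and 3 and low on replicate 2, Tnni1 is high on replicate 1 alone, and Ckm and Myog stay flat in cornea while trachea is high.

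The genes that separated the E17.5 arrays were mostly filament genes. The slow troponin Tnnt1 was at 14.15, 9.52 and 14.15 on replicates 1, 2 and 3, Acta1 at 12.41, 9.21 and 12.55, and Myh3 at 12.15, 7.81 and 11.87. On replicates 1 and 3 Tnnt1 thus stood above the trachea arrays (13.03 to 13.59), while Acta1 and Myh3 stood below them. Other filament genes above every trachea array on both replicates included Tnnc1 (13.77 and 13.65, against 11.71 to 12.85) and Tnnt3 (13.72 and 13.53, against 12.99 to 13.28). Myl4 was another (14.03 and 13.75, against 13.16 to 13.69). The regulator Myf6, which is active in maturing fibres, was at 10.67, 7.09 and 10.27. The slow inhibitory troponin Tnni1 behaved differently, at 12.87, 8.78 and 8.09, so that it was high on replicate 1 alone although Tnnt1 was equal on replicates 1 and 3.

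Some of the same filament genes also varied between the E14.5 arrays. Tnnt1 was at 9.26, 13.14 and 9.45 on replicates 1, 2 and 3, Actc1 at 11.52, 12.28 and 10.09, and Tnnc1 at 12.09, 12.67 and 10.99. The fetal light chain Myl4 was at 11.31, 12.35 and 10.64, so that replicate 2 was highest for all 4 genes. Lens genes were abundant on replicates 2 and 3 (list medians 13.19 and 13.01, against 9.44 on replicate 1), and their part was not tested.

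Other genes that were higher in trachea than in the arrays labelled lung stayed near their cornea level on the E17.5 arrays. Myog was at 7.80, 7.65 and 7.70 at E17.5 and 6.70 to 7.09 at P3, below the 10.51 to 10.94 of trachea. Ckm was at 8.86, 8.42 and 8.75, within the cornea range of 8.08 to 8.87, and Myh7 was at 8.22, 7.77 and 8.23. Chrng, Ryr1, Cacna1s, Myod1 and Myf5 also lay within 1.00 of each other across the 3 E17.5 arrays. Myl2, the slow and ventricular regulatory light chain and not on the list of 47, had the widest split of all listed genes, at 14.70, 8.00 and 14.70, whereas it was at 7.94, 8.16 and 9.08 in trachea. Of the 13 genes on the heart list, which holds Myl2, 2 more separated these arrays in the same order: Tnnt2 was at 12.76, 9.87 and 12.38, and Myl3 at 11.11, 8.16 and 10.58. The other 10 lay within 1.00 of each other across the 3 arrays, and the defining heart genes Nppa, Myh6 and Myl7 were at 6.63 to 7.39, a level seen on the other cornea arrays as well.

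Tests between neighbouring ages called few genes before birth. From E14.5 to E15.5, 2 of the 47 genes rose and 1 fell, against 7.56% of all genes called, 5.3% as higher and 2.26% as lower. Of these, Myh2 (2.11 ± 0.22, adjusted p = 3.08e-07) and Chrna1 (1.70 ± 0.34) rose, and Tnnc1 fell by 2.08 with overlapping groups. From E15.5 to E17.5, only Mstn (2.12 ± 0.47, adjusted p = 0.045), Atp2a1 (1.68 ± 0.33) and Pygm (1.58 ± 0.32) rose in limma, although the median difference of the 47 genes was 1.62 and 0.306% of all genes were called, 0.261% as higher. That count was 25 without E17.5 replicate 2, 22 without E15.5 replicate 1, and 0 without E17.5 replicate 1 or 3 or without E15.5 replicate 2 or 3, where 17, 20, 19 and 22 genes passed at an unadjusted p under 0.05. From E17.5 to P3, 25 genes fell and none rose, against 1.43% of all genes called, 0.452% as higher and 0.979% as lower. Across all 7 ages, 27 genes were called in the F test of limma, against 21.7% of all genes.

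The fall from E17.5 to P3 covered 8 of 9 thin filament genes, 5 of 11 thick filament genes and 5 of 8 Z-disc genes. Actc1 was at 6.83, 6.77 and 6.80 at P3, against 13.05, 10.21 and 13.25 at E17.5 (change -5.37 ± 0.82, adjusted p = 0.000566). Mylpf, the fast regulatory light chain, was at 7.61, 5.90 and 7.77 at P3, against 12.84, 9.77 and 12.65 (change -4.66 ± 0.75). In both cases even the low E17.5 replicate 2 lay above every P3 array. For Actn2, Myoz2, Casq1 and Myf6, called lower too, the groups overlapped. Of the 43 further skeletal muscle genes 12 fell and none rose, and 3 of 13 heart genes fell (Myl2, Tnnt2 and Myl3). Desmin (Des), on the smooth muscle list and also a striated muscle protein, was at 7.16, 7.12 and 7.04 at P3, against 11.02, 7.35 and 10.94, and was the only one of 12 on that list called. In a fit of these 2 ages alone, 5 genes were called lower.

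The 3 E17.5 arrays lay within 1.00 of each other for Myh2 and Chrna1, which varied with age. The fast myosin Myh2 was at 8.19, 7.74 and 7.68 in E14.5 corneas, 9.82, 9.79 and 10.33 in E15.5 corneas, 9.61, 9.82 and 9.37 in E17.5 corneas, and 7.56, 7.66 and 7.47 in P28 corneas. The receptor subunit Chrna1 was at 8.72 to 9.19 at E17.5 and at 5.74 to 5.90 at P28, below every earlier array. The surface ADP-ribosyltransferase Art3, which did separate the E17.5 arrays (7.55, 6.53 and 7.77), was at 9.61, 9.70 and 8.74 at P28, against 7.15, 7.00 and 7.11 at P3 (2.26 ± 0.28, adjusted p = 1.26e-06). From P3 to P28, Art3 rose and Myh2, Chrna1 and Tnnc2 fell, in all 4 of 47 genes against 10.5% of all genes called, 5.65% as higher and 4.85% as lower. The tendon gene Tnmd was at 10.19 to 11.82 on the 6 arrays of E15.5 and E17.5, and was high on E17.5 replicate 2 as well.

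**Figure D3:**
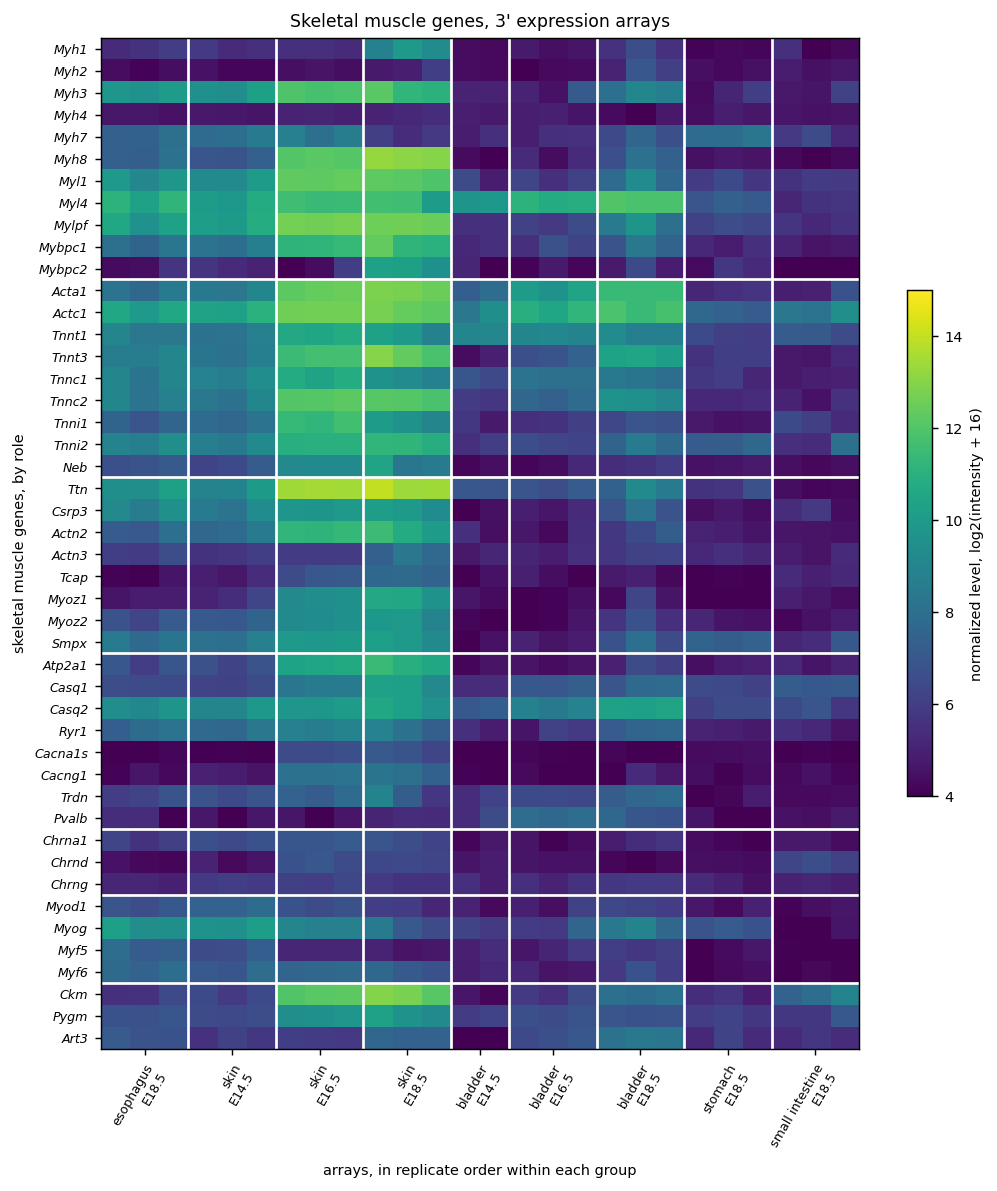
Levels of 46 skeletal muscle genes on every 3' expression array, as log2(intensity + 16), grouped by role down the page and by tissue and age across it. Skin at E16.5 and E18.5 is brightest, esophagus and E14.5 skin are intermediate, and stomach and small intestine are dim for most genes. Small intestine and the later skin arrays belong to the set of 9 arrays that stood apart.

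Esophagus carried muscle transcripts on all 3 arrays, and stomach, its neighbour in the same set of 17 arrays, had few. Of the 46 genes measured, 30 were higher and none lower in esophagus than in stomach, against 7.05% of all genes called, 2.81% as higher and 4.25% as lower. The median level of the 46 genes was 7.25, 7.01 and 7.45 on the esophagus arrays, against 5.16, 4.97 and 5.01 on the stomach arrays. Only 3 of the 46 genes (6.52%) varied by 2-fold or more between the esophagus arrays, against 10.1% of all genes. This was not particular to esophagus. The share was also 6.52% in stomach (5.96% of all genes), 2.17% in E16.5 skin (1.81%) and 37.0% in E18.5 skin (7.05%). On the Gene ST arrays it was 2.13% in P7 cornea (2.82%), 21.3% in trachea (2.41%) and 57.4% in E17.5 cornea (5.10%). Leaving out any 1 array of esophagus or stomach gave 29 to 31 called genes between these organs.

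All 4 regulators measured were higher in esophagus. Myf5, which marks precursors, was at 7.95, 7.21 and 7.31, against 4.04, 4.34 and 4.72 in stomach (3.12 ± 0.26, adjusted p = 3.51e-08). Myog was at 10.22, 9.42 and 9.46, against 6.82, 7.15 and 6.77. Myod1 and Myf6 were higher by 2.17 ± 0.33 and 3.51 ± 0.27, and no array of either organ overlapped for any of the 4. Among 11 further progenitor and fusion genes measured, 5 were higher and none lower, including the satellite cell gene Pax7 (2.35 ± 0.30).

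The embryonic myosin led the sarcomere genes of esophagus. Myh3 was at 9.76, 9.56 and 10.03, against 4.34, 5.12 and 6.03 in stomach (4.62 ± 0.53, adjusted p = 2.83e-06). Csrp3 was at 9.17, 8.65 and 9.53, against 4.47, 4.74 and 4.39 (4.58 ± 0.38). All 9 thin filament genes and 7 of 11 thick filament genes were higher, with Mylpf and the fetal light chain Myl4 each higher by 3.76 ± 0.32. Ttn was higher by 3.70 ± 0.37. For the 9 called genes with a second probe set, the second lay in the same direction.

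Some genes of the list were near the floor in both organs. Myh2 and Myh4 were at 4.12 to 4.71 in esophagus and 4.24 to 4.91 in stomach, and Cacna1s, the voltage sensor of excitation, was at 4.00 to 4.21 against 4.34 to 4.45. The adult fast myosin Myh1 was called, at 5.37, 5.62 and 6.00 in esophagus, against 4.12, 4.23 and 4.16 in stomach (1.49 ± 0.33, adjusted p = 0.00343). Ckm was at 5.49, 5.57 and 6.41 in esophagus, against 5.43, 5.65 and 4.87 (0.51, adjusted p = 0.363). Stomach was not at the floor for every gene. Myh7 was at 7.38, 7.41 and 8.08 in esophagus and at 7.83, 7.88 and 8.33 in stomach, and the Z-disc associated gene Smpx was at 7.77 to 8.57 and 7.26 to 7.55. Of 12 smooth muscle genes 1 was higher and none lower in esophagus, with Actg2 at 11.55 to 12.04 against 11.77 to 11.95.

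**Figure D4:**
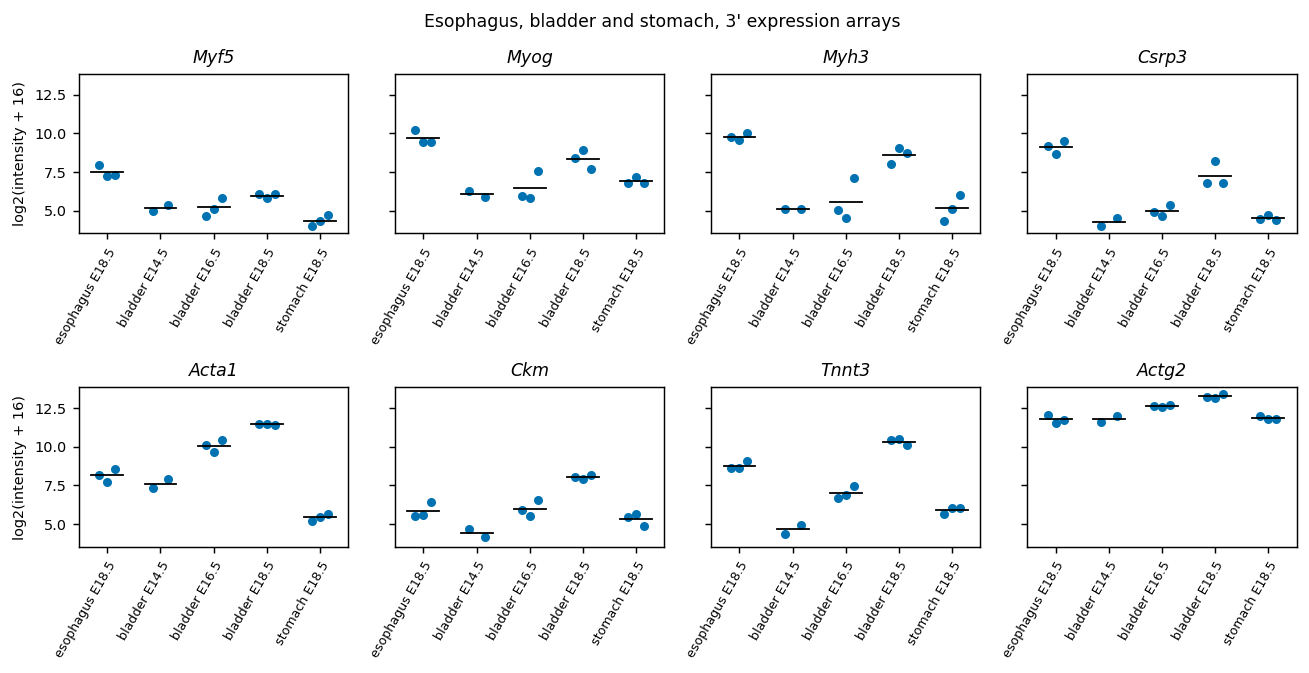
Levels of 7 skeletal muscle genes and the smooth muscle actin Actg2 on each array of esophagus, bladder and stomach, as log2(intensity + 16), with lines at group means. Myf5, Myog, Myh3 and Csrp3 are highest in esophagus, Acta1, Ckm and Tnnt3 are highest in E18.5 bladder, and Actg2 is high in all 5 groups.

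Bladder held a different selection of the list. In esophagus against E18.5 bladder, 9 of 46 genes were higher and 8 lower, against 11.2% of all genes called, 4.85% as higher and 6.38% as lower. Higher in esophagus were 3 regulators (Myf5 by 1.51 ± 0.26, Myf6 by 1.55 ± 0.27 and Myog by 1.36 ± 0.45), 3 Z-disc genes (Csrp3 by 1.85 ± 0.38, Ttn and Smpx), Mylpf, Myl1 and Neb. Lower in esophagus was Acta1, at 8.19, 7.72 and 8.58 against 11.46, 11.47 and 11.41 in bladder (-3.28 ± 0.35, adjusted p = 7.64e-07). Ckm was at 5.49, 5.57 and 6.41 in esophagus, against 8.06, 7.91 and 8.14. Pvalb, Myh2, Tnnt3, Art3, Actc1 and Myl4 were the others lower in esophagus. Of 12 smooth muscle genes, 9 were lower and none higher in esophagus than in bladder, and their part in these differences was not tested. Of the 4 called genes with a second probe set, 2 lay in the same direction on it. The others were Ckm and Art3, whose second sets were higher in esophagus (6.26 against 5.63 and 5.18 against 4.15).

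Some striated genes were already abundant in bladder at E14.5. Myl4 was at 9.70 and 9.87 at E14.5, at 11.09, 10.78 and 10.86 at E16.5, and at 12.02, 11.86 and 11.84 at E18.5. Tnnt1 lay between 8.76 and 9.30 on all 8 bladder arrays. At E14.5 Myh3 was at 5.11 on both arrays and the 4 regulators were at 4.29 to 6.26, so these filament genes were present on arrays where embryonic myosin was low.

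From E14.5 to E16.5, 9 of 46 genes rose in bladder and none fell, against 0.341% of all genes called, 0.27% as higher and 0.0716% as lower. Acta1 was at 10.08, 9.66 and 10.41 at E16.5, against 7.30 and 7.93 at E14.5 (2.43 ± 0.39, adjusted p = 0.00472). Art3 was at 6.43, 6.67 and 6.98, against 4.00 on both E14.5 arrays, which is the floor (2.69 ± 0.24). Tnnt3, Actc1, Pvalb, Tnnc2, Casq1, Casq2 and Tnnc1 were the other 7, with rises of 1.42 to 2.35. No myosin heavy chain, regulator or receptor gene was called. In a fit of the 2 ages alone none of the 9 passed in limma and 11 genes passed at an unadjusted p under 0.05, and the count fell to 5 without E14.5 replicate 1 or without E16.5 replicate 3. Of 12 smooth muscle genes 1 rose over the same step. The 1 called gene with a second probe set was Art3, and the direction was not shared: the second set had means of 4.27 at E14.5 and 4.24 at E16.5, near the floor.

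From E16.5 wildtype to E18.5 Get1 +/- bladder, 25 of 46 genes rose and none fell, against 6.13% of all genes called, 4.00% as higher and 2.14% as lower. In this step 8 of 11 thick filament genes rose, including Myh3, at 8.02, 9.04 and 8.75 at E18.5, against 5.07, 4.55 and 7.10 at E16.5 (3.02 ± 0.53, adjusted p = 0.000544). Tnnt3 had the largest rise of the list, at 10.40, 10.46 and 10.12, against 6.70, 6.85 and 7.45 (3.33 ± 0.26). Myog, Myf6 and Myod1 rose by 1.90 ± 0.45, 1.34 ± 0.27 and 1.02 ± 0.33, the last with overlapping arrays. Within E16.5, replicate 3 alone had raised Myh3 (7.10) and Myog (7.57, against 5.92 and 5.83). Within E18.5, 8 of the 46 genes (17.4%) were at least 2-fold higher on replicate 2 than on both others, against 0.451% of all genes. Without that replicate 20 genes were called, and without E16.5 replicate 3, 29. Of 12 smooth muscle genes 3 rose (Des, Synpo2 and Smtn), and second probe sets shared the direction in 5 of 8 genes.

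**Figure D5:**
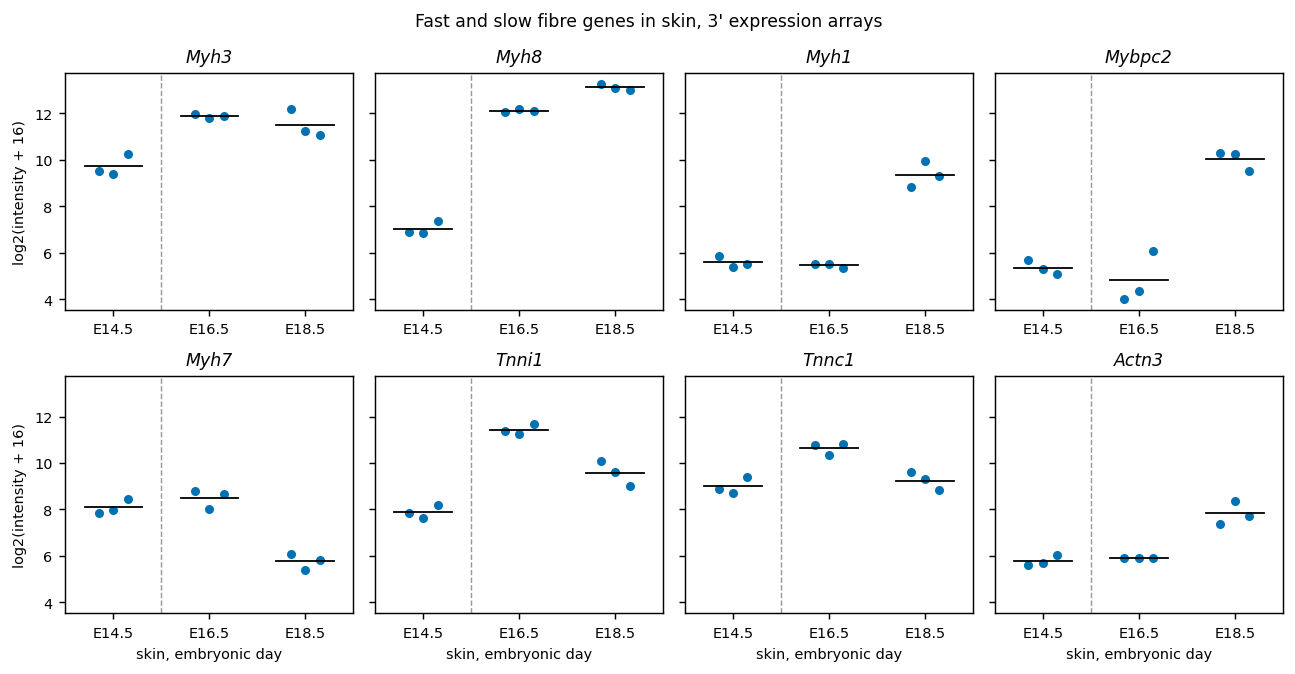
Levels of 8 genes in skin of the 3 fetal ages on the 3' arrays, as log2(intensity + 16), with 1 point per array and lines at group means. The dashed line separates E14.5 from the later ages, which belong to another set of arrays. Myh1, Mybpc2 and Actn3 are higher at E18.5 than at E16.5, and Myh7, Tnni1 and Tnnc1 are lower.

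The skin arrays of E16.5 and E18.5 had the highest median muscle levels on the 3' arrays. In skin the median level of the 46 genes was 7.06, 6.97 and 7.71 on the E14.5 arrays. It was 9.23, 9.36 and 9.52 on the E16.5 arrays, and 10.17, 9.92 and 9.09 on the E18.5 arrays. The later ages lie in the set of 9 arrays that stood apart. In their rank above esophagus and bladder, the tissue and the set therefore cannot be told apart. The E14.5 skin arrays lie in the other set, where the esophagus medians (7.25, 7.01 and 7.45) overlapped theirs. From E16.5 to E18.5, both within the set of 9 arrays, 6 genes rose and 4 fell, against 4.44% of all genes called, 2.44% as higher and 2% as lower, while the median change of the 46 was -0.04. Without quantile normalization 5 rose and 6 fell. Without the 3 skin arrays that held surfactant transcripts, a fit added after seeing the data, 6 rose and 1, Myh7, fell; it leaves 1 array at E18.5, which is assumed to vary like the other groups. Fat genes rose over the same step (3 of 5 measured), and their part was not tested.

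The 6 genes that rose in skin by E18.5 were led by Mybpc2 and Myh1. Mybpc2, the fast myosin-binding protein, was at 10.30, 10.27 and 9.52 at E18.5, against 4.00, 4.36 and 6.06 at E16.5 (5.22 ± 0.52, adjusted p = 5.32e-07). Myh1, an adult fast myosin, was at 8.85, 9.93 and 9.30, against 5.51, 5.50 and 5.35 (3.91 ± 0.33, adjusted p = 4.50e-08). The fast alpha-actinin Actn3 was higher by 1.91 ± 0.24, Casq1 by 1.46 ± 0.24, Art3 by 1.59 ± 0.21 and Myh8 by 1.01 ± 0.28. The other adult fast myosins were dim at both ages: Myh4 was at 5.07 to 5.45 against 4.96 to 5.15, and Myh2 was at 4.79 to 6.05 against 4.40 to 4.56. Other genes typical of fast fibres were not called: Tnnc2 was at 12.16, 12.10 and 11.83, against 12.06, 12.09 and 12.21, and the differences of Tnnt3, Tnni2 and Mylpf were 0.75, 0.15 and -0.13. Genes of fast and of slow fibres were not lists of their own, so no count is given for them.

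The 4 genes that fell over the same step were Myh7, Tnni1, Tnnc1 and Myog. Myh7 was at 6.10, 5.4 and 5.84 at E18.5, against 8.81, 8.04 and 8.68 at E16.5 (-2.73 ± 0.33, adjusted p = 9.54e-06). Tnni1 was at 10.07, 9.63 and 9.01, against 11.39, 11.25 and 11.68 (-1.87 ± 0.31). Tnnc1, shared by slow and cardiac fibres, fell by 1.39 and Myog by 1.5. None of the 10 called genes had overlapping arrays. Of other genes found in slow fibres, Mybpc1 was at 12.34, 11.21 and 11.04, against 11.15, 11.19 and 11.35 (0.30, adjusted p = 0.745), and Tnnt1 differed by -0.92, short of 2-fold (adjusted p = 0.0441). Myl3, the slow and ventricular essential light chain outside the list, was at 5.33 to 5.52 at E18.5, against 9.00 to 9.54 at E16.5 (-3.82 ± 0.30). Neither Ttn nor Acta1, common to all fibres, passed. Ttn was at 14.01, 13.39 and 13.42, against 13.42, 13.50 and 13.47 (0.14, adjusted p = 0.916), and Acta1 was at 12.55 to 12.82 against 12.22 to 12.52.

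Skin and bladder differed at E14.5, where both lay in the set of 17 arrays. In this comparison, added after the sets were seen, 29 of 46 genes were higher and 1 lower in skin, against 14.1% of all genes called, 8.13% as higher and 5.99% as lower. Mylpf was at 10.12, 9.98 and 10.83 in skin, against 5.49 on both bladder arrays (4.82 ± 0.35, adjusted p = 5.55e-09). Myog was at 9.59, 9.51 and 10.15, against 6.26 and 5.86, and all 4 regulators were higher in skin. Pvalb, the calcium buffer parvalbumin, was the gene lower in skin (-1.49 ± 0.39). Replicates 1 and 2 of E14.5 skin share an identifier and intestinal transcripts, so the 3 arrays may hold 2 distinct samples. With these 2 averaged, 29 genes were higher and 1 lower.

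The earlier step in skin, between E14.5 and E16.5, crossed the array sets. There 29 of 46 genes rose and 1 fell, but 43.2% of all genes were called (18.2% as higher and 25% as lower), so the list's share is to be read against that. With E14.5 skin replicates 1 and 2 averaged, 28 rose and 2 fell. Ckm was at 12.02, 12.17 and 12.22 at E16.5, against 6.46, 5.85 and 6.46 at E14.5, and Myf5 was at 5.17 to 5.18 against 6.54 to 7.27. For Mybpc1 the order of 2 probe sets turned: at E16.5 their means were 11.23 for the one used and 13.14 for the other, against 8.29 and 6.05 at E14.5. The same limit applied to esophagus against small intestine (33 higher, 2 lower, with 48.8% of all genes called, 25.7% as higher and 23.1% as lower), esophagus against E18.5 skin (4 higher, 29 lower, with 48.9%, 25.6% and 23.3%), bladder against small intestine (33 higher, 1 lower, with 45.2%, 25.9% and 19.3%) and stomach against small intestine (7 higher, 5 lower, with 45.6%, 25.6% and 20%). Within the set of 9, E18.5 skin against small intestine had 39 genes higher and none lower, against 19.3% of all genes called, 9% as higher and 10.3% as lower. Without the skin arrays that held surfactant transcripts, 2 genes were higher and 31 lower in esophagus than in E18.5 skin, and 39 were higher and none lower in E18.5 skin than in small intestine. The median level of the 46 genes was 4.99, 4.69 and 4.97 on the small intestine arrays. On replicate 4 of small intestine Tnni2 was at 8.04 and Smpx at 7.03, against at most 5.52 and 5.4 on the other 2 arrays.

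Genes outside the list that followed it most closely were named by Pearson correlation with the median of the list across arrays, among genes with a range of at least 2.00. Over the 27 Gene ST arrays these were Pdlim3 (0.991), Mir434 (0.983), Eno3 (0.981), Itgb1bp2 (0.979) and Srl (0.979). Over the 26 3' arrays they were Itgb1bp2 (0.990), Apobec2 (0.983), Myot (0.978), Sln (0.977) and Atp1b4 (0.971). Itgb1bp2, the gene of the muscle protein melusin, was the only one named on both array types. Arrays of a group share their tissue, so these values describe the arrays and carry no test. Of the list itself, Cacng1 (-0.398), Trdn (-0.287) and Myh2 (-0.011) had the lowest correlation with the list's median on Gene ST arrays, and Pvalb (-0.181) on 3' arrays.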

How the data were processed

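Total RNA of whole tissues was hybridised to 2 types of Affymetrix array. The authors deposited linear intensity values per probe set, made with Affymetrix Expression Console 1.1.1 and PLIER 2.0, per the submitters' processing notes; other steps are not given in the sources used here. Deposited intensities ran from 0 to 78718 on Gene ST arrays (array medians 179 to 273) and from 0 to 134762 on 3' arrays (24.8 to 49.3). The number of arrays limits the precision.

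Here values were taken as log2(intensity + 16), quantile normalized within each array type and named through the platform annotation, with symbols updated through RefSeq gene IDs; 21789 of 35556 Gene ST probe sets and 34958 of 45101 3' probe sets named 1 gene, 1621 and 932 named several and 12146 and 9211 none. The probe set with the highest mean stood for a gene. One linear model per array type, with all its groups, was fitted with limma 3.58.1 in R 4.3.3. The 2 array types were normalized apart and no level was compared between them. The procedure was tested on simulated data.

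The members and lists were chosen with earlier results of these data known. Any member could be named, with every array's values for up to 3 called members of largest change per role; of each other list, up to 3 called genes of largest change and the markers of each tissue; and the 5 non-members per array type most correlated with the member median. Non-members named for their level on single arrays (Msc, Mef2c, Tbx1, Nppa, Myh6, Myl7, Tnnt2, Myl3, Tnmd, Thbs4, Mkx, Scx, Pth, Slc5a5 and Tshr) were chosen after their values were seen. Further lists held other skeletal muscle, progenitor, head muscle, synapse, heart, smooth muscle, tendon, nerve, cartilage, fat, thyroid, thymus, lens and tissue genes.

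Replicates 1 and 2 of E14.5 skin share an identifier in the labels and both hold intestinal transcripts; their log2 differences had an SD of 0.372, against 0.593 and 0.546 for each against replicate 3 and 0.309 for the closest pair of 3' arrays. Both were kept, though the distinct samples may be 2, and the counts with them averaged are given beside the results. Deviations of same-numbered arrays from their group means did not correlate above 0.1 in every pair of any comparison, so replicate numbers were not taken as pairs. Alternatives were a pseudocount of 1, values without quantile normalization, the mean of a gene's probe sets, only genes whose mean in at least 1 group exceeded the table median, a trended robust variance, a replicate block, a fit of the compared groups by themselves, dropping the fold limit, leaving out single arrays and averaging E14.5 skin replicates 1 and 2. Fitting the array sets apart, E14.5 skin replicate 3 alone, leaving out the 3 skin arrays with surfactant transcripts, and comparing trachea with P3 cornea and E14.5 skin with E14.5 bladder were added after seeing the data.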

Additional observations from a re-analysis of the deposited data

Results flagged for a closer look

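The step from E14.5 to E16.5 differed between skin and bladder for 24 of the 46 skeletal muscle genes in a limma interaction term, 20 with a larger and 4 with a smaller change in skin. Over all genes 42.1% were called in the same test (16.9% as larger and 25.2% as smaller). E14.5 skin and both bladder ages lie in one set of 3' arrays and E16.5 skin in the other. Tissue, age and array set cannot be told apart here, and the count was 24 (19 larger and 5 smaller) with E14.5 skin replicates 1 and 2, which may be 1 sample, averaged.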

How the results depend on the processing

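Counts of called genes stayed within 1.5 times the reported value, with these exceptions, whose cause was not tested. In a fit of only the groups compared, the count in cornea was 0 from E15.5 to E17.5 (limma; 11 genes at an unadjusted p under 0.05), 5 from E17.5 to P3 (25 unadjusted) and 7 from P3 to P28, and in bladder 0 from E14.5 to E16.5 (11 genes unadjusted). Without a fold limit it was 6 from E14.5 to E15.5 and 8 from P3 to P28 in cornea. With a pseudocount of 1 it was 20 for stomach against small intestine. Leaving out 1 array gave 0 to 25 genes from E15.5 to E17.5 and 2 to 10 from E14.5 to E15.5 in cornea, the 10 without E15.5 replicate 1, and 5 to 7 from E14.5 to E16.5 in bladder. With the replicate number as a block, 23 genes rose from E15.5 to E17.5 in cornea; the numbers do not pair the arrays, and no other count was moved past 1.5 times by the block. For the leading genes of each comparison, 878 alternative values kept direction and call, 31 kept direction but lost the call, and none reversed. Array sets fitted apart, E14.5 skin replicate 3 alone and skin arrays without surfactant transcripts moved no count past 1.5 times. Levels within about 1.00 of the floor on the 3' arrays, as for Cacna1s or Myh4 outside skin, cannot be ordered.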

Other observations

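Lens and nerve transcripts also varied between arrays of one cornea age. The median of 5 lens genes was 7.32, 12.52 and 8.86 on the P14 cornea arrays, where the muscle medians lay within 7.28 to 7.43. The median of 5 measured nerve genes was 8.92, 9.16 and 11.63 at E14.5, highest on the array with the lowest muscle median. The head muscle regulator Msc was at 9.74, 7.92 and 9.75 on the E17.5 arrays, the order seen for the filament genes, while Tbx1, another regulator of head muscle, was at 8.92, 9.03 and 9.02. Mef2c, a partner of the myogenic regulators, was at 11.96, 9.21 and 11.89. The median of 4 thyroid and parathyroid genes was 10.35, 9.71 and 7.77 on the trachea arrays, lowest on the array with the highest muscle median. It followed the parathyroid gene Pth, at 12.65, 11.58 and 7.87. Thyroid Tg stayed high on all of them, at 14.15, 14.00 and 13.51, and Slc5a5 and Tshr lay within 7.59 to 8.05.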
